A study of Mus musculus with 17 samples.

Results

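The kidney cytokines Il15, Il7, Il33, Il18, Il1b, Csf1 and Il34 were followed in mouse kidney together with 3 cytokine receptor genes, Il15ra and the beta receptor genes Csf2rb and Csf2rb2. The members were given as a list of symbols, and all 10 were found in the deposited table of 22561 genes. Whole kidney RNA was sequenced from 17 male mice, 1 library per mouse. The Ctrl group was made up of 5 C57BL/6 mice. Case stood for 6 db/db mice, numbered 1 to 6, which are BKS.Cg-Dock7m +/+ Leprdb/J animals without a working leptin receptor, and Dapa for 6 db/db mice, numbered 7 to 12, given dapagliflozin at 1 mg per kg per day by gavage. Dapagliflozin inhibits the sodium-glucose cotransporter SGLT2 of the proximal tubule. Treatment began at 8 weeks of age and lasted 6 weeks, and the Ctrl and Case mice received saline. The Ctrl mice were of another strain than the db/db mice, so that strain and leptin receptor genotype cannot be told apart in either comparison with Ctrl. In Dapa against Ctrl the drug differs as well and cannot be told apart from strain and genotype.

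Cytokines act through surface receptors that they bring together. IL-15 and IL-7 signal through the common gamma chain with JAK1 and JAK3, and IL-15 is handed to neighbouring cells while bound to the receptor chain encoded by Il15ra. CSF1 and IL-34 are the ligands of CSF1R, the receptor on which resident kidney macrophages depend, and IL-34 is made by tubular epithelium. IL-1 beta, IL-18 and IL-33 belong to the IL-1 family: IL-1 beta and IL-18 are cut to their active forms by inflammasome caspases, while IL-33 is stored in nuclei and released from damaged cells. Csf2rb encodes the beta chain shared by the receptors of GM-CSF, IL-3 and IL-5, and Csf2rb2, a duplicate found in mice, encodes the beta chain of the IL-3 receptor. Both beta chains are expressed by myeloid cells.

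2 members passed the test in any comparison. Il33 RNA was higher in Case than in Ctrl kidneys, at a fold change of 1.04 on the log2 scale, and Il15 RNA was lower in Dapa than in Ctrl kidneys, at a log2 fold change of -0.86. The beta receptors had fold changes of 1.48 (Csf2rb) and 2.00 (Csf2rb2) on the log2 scale between Case and Ctrl, but their levels spread widely among the Case mice and neither passed. Without the mouse Case 3 these were 0.99 and 1.18, beside 1.03 for Il33. No member passed in Dapa against Case. Fold changes and q values came from edgeR's quasi-likelihood test fitted to all genes of a pair of groups. The SE was taken as the size of the log2 fold change over the square root of that test's F. Values of q were adjusted by Benjamini-Hochberg over all genes tested, and a gene with a q under 0.05 was called.

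The share of called genes differed between the comparisons. In Case against Ctrl 1 of the 10 members was called, where 13.0% of the 14582 genes tested were called. In Dapa against Ctrl 1 of 10 was called, against 29.1% of 14647 genes. In Dapa against Case 0 of 10 were called, against 0% of 14573 genes by this test, while DESeq2 called 202 genes and edgeR's exact test 129, without a member among them. At an unadjusted p under 0.05 stood 4 members in Case against Ctrl, where 28.7% of genes stood there. In Dapa against Case there were 2, against 12.9% of genes (1880), and in Dapa against Ctrl 2, against 41.1% of genes. The median log2 fold change of the members was 0.52 for Case against Ctrl, -0.49 between Dapa and Case and 0.08 between Dapa and Ctrl, where that of all genes tested was 0.03, -0.01 and 0.01. The 3 comparisons share groups, so that their values are not independent of each other.

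Library totals ran from 15757676 to 16902608 counts in Ctrl, from 14229892 to 17779635 in Case and from 13039535 to 16094410 in Dapa. The mitochondrial share of counts was 17.9% to 20.42% in Ctrl, 19.83% to 27.27% in Case and 19.72% to 27.64% in Dapa, and its part in the changes of Il33 and Il15 against Ctrl was not tested. Kidney identity was plain in all groups, with a summed FPKM (a level corrected for library total and transcript length) of 8 proximal tubule markers between 1400 and 2560. Members were counted at a low to moderate depth, from 0 counts of Csf2rb2 in a Ctrl mouse to 422 of Csf1 in a Case mouse. Counting error alone gives a coefficient of variation of 5.78% for Il15ra in Case at its mean count, and of 29.1% for Csf2rb2 in Ctrl, where 80.2% was found among the mice. Since whole kidneys were sequenced, fewer cells of a type and less RNA per cell cannot be told apart.

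Il15 was the member with the highest FPKM in each group. In the 5 Ctrl mice its FPKM was 6.42, 7.32, 9.05, 6.57 and 9.18. In Case it ran from 5.41 over a median of 6.43 to 7.52, and in Dapa from 3.52 over a median of 4.43 to 6.23. Every Dapa mouse lay below every Ctrl mouse, and 5 of the 6 Dapa mice lay below every Case mouse. The mean was 7.71 ± 1.33 (SD) in the 5 Ctrl mice, 6.42 ± 0.80 in the 6 Case mice and 4.58 ± 0.99 in the 6 Dapa mice.

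The fall of Il15 in Dapa against Ctrl had a log2 fold change of -0.86 (SE 0.16, edgeR q = 0.00257). Il15 was the 1 member of 10 whose Dapa and Ctrl values did not overlap, a pattern found in 14.5% of all genes tested in that comparison. Its mean was 0.594 of the Ctrl mean, which is short of the fold of 2 that the study's rule for differentially expressed genes (DEGs) asks for besides q. In Case against Ctrl the log2 fold change was -0.34 (SE 0.13, edgeR q = 0.0998), and in Dapa against Case it was -0.51 (SE 0.15, edgeR q = 0.232). Neither of these passed. No member was without overlap in Case against Ctrl (8.43% of all genes) or in Dapa against Case (0.48% of all genes).

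Il15ra, which encodes the chain that holds and presents IL-15, was not called in any comparison. Its FPKM in the Ctrl mice was 0.832, 1.85, 1.35, 1.09 and 1.05. Case mice ran from 0.861 over a median of 1.65 to 1.95, and Dapa mice from 1.20 over a median of 1.34 to 2.02. The groups overlapped throughout. The log2 fold change was 0.25 (SE 0.21, edgeR q = 0.463) in Case against Ctrl, -0.10 (SE 0.17, edgeR q = 0.832) in Dapa against Case and 0.15 (SE 0.19, edgeR q = 0.605) in Dapa against Ctrl. Single mice moved these values, the first to 0.15 without Ctrl 1 and 0.44 without Ctrl 2 (q = 0.716 and 0.171), the others over ranges of -0.21 to -0.04 and 0.05 to 0.35.

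The balance of cytokine to presenting receptor was taken as the log2 ratio of Il15 to Il15ra within a mouse, with 0.1 FPKM added to each. It was 2.58 ± 0.41 (SD) in Ctrl, 2.00 ± 0.39 in Case and 1.57 ± 0.11 in Dapa. The Dapa mice, from 1.39 to 1.73, all lay below the lowest Ctrl mouse at 1.93. The ratio was lower in Dapa than in Ctrl by an exact two-sided permutation test (difference -1.01, p = 0.00217, the smallest that 462 arrangements allow, q = 0.0195 over 9 ratio tests). It was also lower in Dapa than in Case (difference -0.43, exact permutation p = 0.00649, q = 0.0292). The difference of Case from Ctrl, -0.58, did not pass (exact permutation p = 0.0433, q = 0.0779). Leaving out Dapa 7, 8, 10, 11 or 12 brought q to 0.0779 against Case, at differences of -0.43 to -0.40. Against Ctrl q was then 0.0714, but at the smallest p that 5 mice against 5 allow (exact permutation p = 0.00794), so this loss says nothing about stability. The difference from Ctrl was -1.17 to -0.90 over all mice left out in turn.

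**Figure D1:**
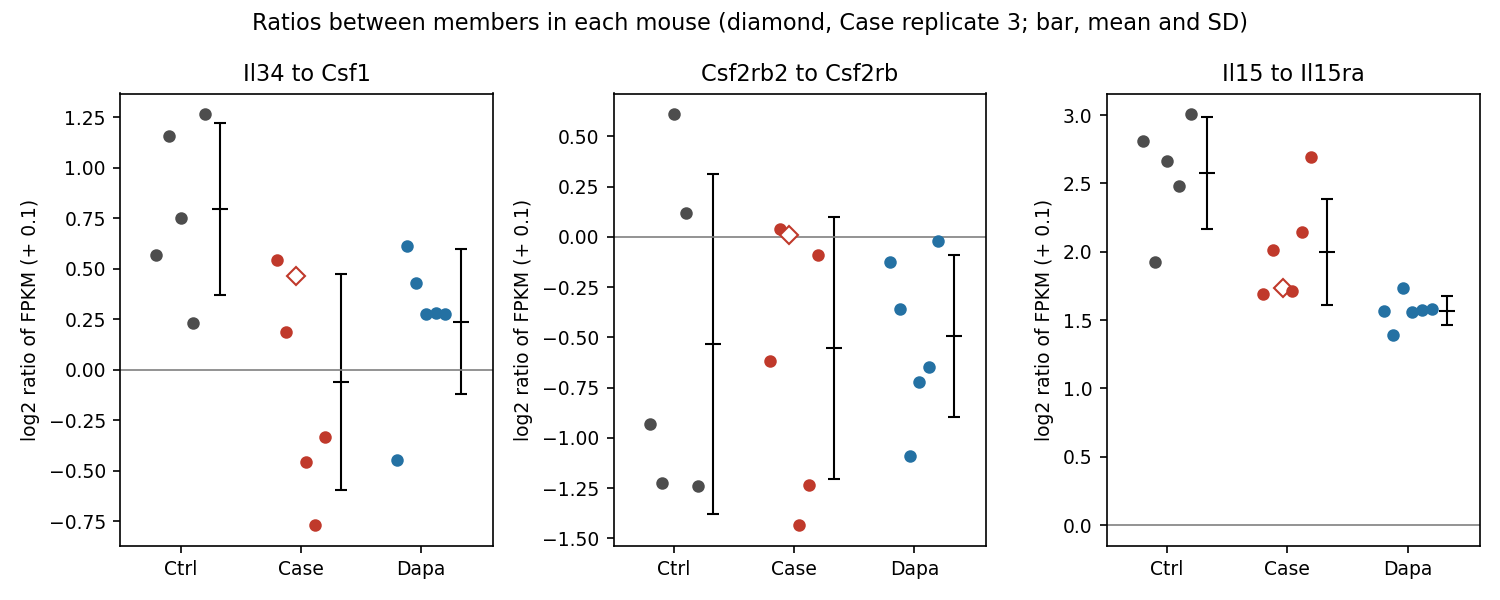
The log2 ratio of FPKM (0.1 added to each gene) of Il34 to Csf1, Csf2rb2 to Csf2rb and Il15 to Il15ra is plotted for each mouse by group. Bars give the mean and SD, and the diamond is Case replicate 3. The Dapa mice lie at 1.39 to 1.73 for Il15 to Il15ra, below all 5 Ctrl mice, and the groups overlap for Csf2rb2 to Csf2rb.

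Il7, a growth factor of lymphocytes made by stromal and epithelial cells, had the lowest mean FPKM of all members in each group, although with the annotated exon lengths Csf2rb2 lay below it in Ctrl (0.15 against 0.16). Its counts ran from 4 to 27 per mouse. The mean FPKM was 0.088 ± 0.042 (SD) in Ctrl, 0.073 ± 0.033 in Case and 0.097 ± 0.036 in Dapa, with overlap between all groups. Its log2 fold change of -0.33 in Case against Ctrl had an SE of 0.40 (edgeR q = 0.631), and was -0.05 without Ctrl 4, -0.18 without Case 1 and -0.52 without Ctrl 5. Counting error alone gives a coefficient of variation of 25.8% to 28.7% for Il7, where 37.0% to 48.1% was found among the mice of a group.

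Among 11 partners of IL-15 and IL-7, 7 had enough counts to be tested, and those without were Il7r, Il2ra, Il21r and Il9r. None of the 7 was called in Case against Ctrl or in Dapa against Case (edgeR, q under 0.05), where 3 and 1 had an unadjusted p under 0.05. In Dapa against Ctrl Jak3 rose and Jak1 fell. Jak3, the kinase bound to the common gamma chain, went from 1.55 ± 0.48 (SD) FPKM in Ctrl to 2.91 ± 0.89 in Dapa (log2 fold change 0.81, SE 0.23, edgeR q = 0.0193). It was at 3.15 ± 1.70 in Case, where its log2 fold change of 0.93 against Ctrl did not pass (edgeR q = 0.0604). Jak1, the kinase shared by many cytokine receptors, went from 19.2 ± 1.49 to 16.5 ± 1.14 FPKM, with 17.7 ± 1.62 in Case (log2 fold change -0.33, SE 0.08, edgeR q = 0.00855). The common gamma chain gene Il2rg, at 0.97 ± 0.25 FPKM in Ctrl, 0.986 ± 0.661 in Case and 0.579 ± 0.232 in Dapa, did not pass in Dapa against Ctrl (edgeR q = 0.0764).

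Cell type markers were set beside Il15, in comparisons where 13.0% (Case against Ctrl) and 29.1% (Dapa against Ctrl) of all genes were called. Of 8 proximal tubule markers 2 fell in Case against Ctrl and 6 fell in Dapa against Ctrl, and Lrp2, the megalin gene, was at 163.5 ± 25.8 FPKM in Ctrl, 87.5 ± 18.9 in Case and 74.3 ± 20.3 in Dapa. Their summed FPKM ran from 2130 to 2400 in Ctrl, from 1400 to 2560 in Case and from 1560 to 2100 in Dapa. Slc34a1 alone had means of 1388, 1218 and 1208 in these groups. Of 10 markers of collecting duct and distal nephron 4 rose in Case and 7 rose in Dapa against Ctrl, with sums of 708 to 1820, 1260 to 3110 and 1660 to 2490. Of the 7 dendritic cell markers 5 could be tested in Dapa against Ctrl, and 2 of these, Clec9a and Clec10a, fell. Of the 5, 1 had a fold change above 0, namely Zbtb46 (0.21 on the log2 scale, edgeR q = 0.345). The sums over the list were 1.68 to 3.86 in Ctrl and 1.47 to 2.21 in Dapa. No marker of these lists was at 0 in a whole group, and their part in the fall of Il15 was not tested.

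Il33, the nuclear alarmin, was the member called in Case against Ctrl. Its FPKM in the Ctrl mice was 1.09, 0.974, 0.714, 1.55 and 1.47. In Case the values ran from 1.27 over a median of 2.65 to 3.62, and 5 of 6 lay above every Ctrl mouse. Dapa mice ran from 1.04 over a median of 1.59 to 2.04, between the other groups, with 3 of 6 above every Ctrl mouse and 1 below every Case mouse. The means were 1.16 ± 0.35 (SD) in the 5 Ctrl mice, 2.51 ± 0.83 in the 6 Case mice and 1.58 ± 0.40 in the 6 Dapa mice.

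Il33 rose in Case against Ctrl with a log2 fold change of 1.04 (SE 0.26, edgeR q = 0.0232), and with a fold of 2.16 between means it was also a DEG. In Dapa against Case its log2 fold change was -0.69 (SE 0.24, edgeR q = 0.281), and in Dapa against Ctrl it was 0.34 (SE 0.23, edgeR q = 0.278). The call in Case against Ctrl was lost when Ctrl 1, 2 or 3 was left out (q = 0.053, 0.0601 and 0.0605, at fold changes of 1.03, 0.98 and 0.91). It was also lost with a replicate block (log2 fold change 0.93, q = 0.0847) and with a term for 7 libraries (0.78, q = 0.124). In those 7 the FPKM of 3 broken entries (Sirt1, Tgfb1 and Bmp4) did not match their counts. Ctrl 2, at 0.9988 of the value that the count gives, was taken as a match. The call did not rest on Case 3, since the fold change without it was 1.03 (q = 0.0375). Of 7 fibroblast and mesangial markers 6 had a fold change above 0 in Case against Ctrl. Of the 7, 0 were called, where 13.0% of all genes were. 2 (Pdgfra and Dcn) had an unadjusted p under 0.05, where 28.7% of all genes did. The summed FPKM of the 7 markers ran from 19.9 to 40.8 in Ctrl and from 29.3 to 51.6 in Case. No marker of the list was at 0 in a whole group, and the part of these markers in the rise of Il33 was not tested.

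The plot of all members by mouse shows the order of the levels. In Ctrl the FPKM of Il15 stood clear of that of Il34, while Il34, Il18, Il15ra and Il33 each overlapped with the next below. Csf1 stood clear of Il1b, and Il1b, Csf2rb, Csf2rb2 and Il7 overlapped in turn. In Case and Dapa Il15 alone stood clear of its neighbour. The order depends on the transcript length behind FPKM: for Il15ra that was 12215 bases, 275% of the 4446 bases of its annotated exons, and for Csf2rb it was 65.5%. With the annotated exon lengths Il15ra moved from rank 4 to rank 2 in Ctrl and from rank 5 to rank 1 in Dapa, where Il15 had 3.86 ± 0.84 (SD) counts per kilobase of exon, scaled to the library total (as in FPKM), and Il15ra 4.05 ± 0.85. The edgeR comparisons between groups use counts and do not depend on that length, whereas the levels of the ratios between members depend on it in full, and their differences between groups to the extent of the FPKM added to each gene.

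**Figure D2:**
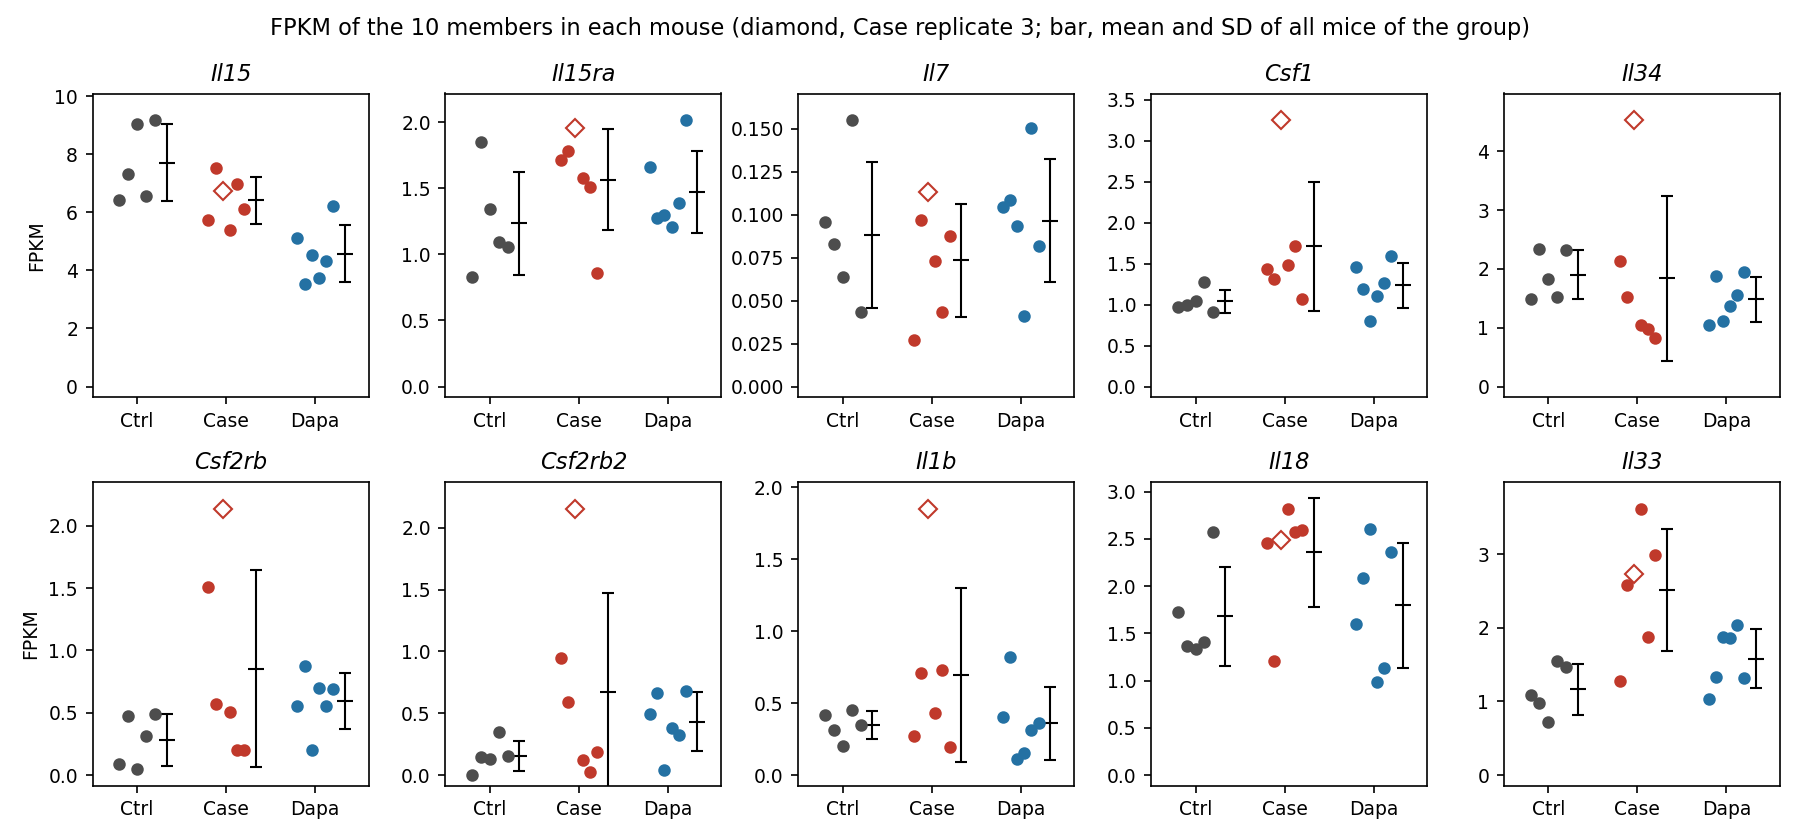
FPKM of the 10 members is plotted for each of the 17 mice by group, on an axis of its own for each gene. Bars give the mean and SD of the group, cut at the edge where they reach below 0, and the diamond is Case replicate 3. All 6 Dapa mice lie below all 5 Ctrl mice for Il15, 5 of 6 Case mice lie above all Ctrl mice for Il33, and Case replicate 3 is the highest Case mouse for 7 of the 10 members.

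Il18 encodes a cytokine that tubular epithelium makes and that drives interferon gamma in lymphocytes. Its counts were low, 10 to 33 per mouse. The FPKM in the Ctrl mice was 1.73, 1.37, 1.33, 1.41 and 2.58. The Case mice ranged from 1.21 over a median of 2.53 to 2.82, and Dapa mice from 0.989 over a median of 1.85 to 2.61. 5 of the 6 Case mice lay within 2.46 to 2.82, and Case 2 stood alone at 1.21. No comparison passed, with log2 fold changes of 0.41 (SE 0.28, edgeR q = 0.365) in Case against Ctrl, -0.41 (SE 0.30, edgeR q = 0.576) in Dapa against Case and 0.00 (SE 0.33, edgeR q = 0.997) in Dapa against Ctrl. Without Case 2 the first of these was 0.55 (q = 0.193).

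Il1b, the classic macrophage cytokine of the inflammasome, was at 4 to 71 counts per mouse. Its FPKM in the Ctrl mice was 0.419, 0.311, 0.203, 0.453 and 0.351. Among the Case mice it ran from 0.191 over a median of 0.567 to 1.85, and Dapa mice from 0.109 over a median of 0.336 to 0.819. The highest Case value was that of Case 3, and the next was 0.728. On the log2 scale the fold change was 0.89 (SE 0.50, edgeR q = 0.264) in Case against Ctrl and -0.94 (SE 0.55, edgeR q = 0.469) in Dapa against Case. Without Case 3 these were 0.33 (q = 0.627) and -0.39 (q = 0.738).

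Of 15 partners listed for the IL-1 family 11 were tested in Case against Ctrl, and Il1r1 and Il18bp rose. Il1r1, the signalling receptor of IL-1, went from 0.817 ± 0.196 (SD) FPKM in Ctrl to 1.28 ± 0.23 in Case (log2 fold change 0.57, SE 0.16, edgeR q = 0.034) and 1.47 ± 0.36 in Dapa (log2 fold change 0.74, SE 0.18, edgeR q = 0.00948). Il18bp, which encodes the soluble inhibitor of IL-18, was at 1.91 ± 0.52 in Ctrl and 14.2 ± 14.4 in Case (log2 fold change 2.78, SE 0.73, edgeR q = 0.0263). In Dapa it was at 2.77 ± 0.43 FPKM, and its log2 fold change of -2.35 against Case did not pass (SE 0.63, edgeR q = 0.211). Il18rap, the second chain of the IL-18 receptor, rose in Dapa against Ctrl from 0.0803 ± 0.0517 to 0.287 ± 0.163 FPKM, with 0.152 ± 0.065 in Case (log2 fold change 1.74, SE 0.53, edgeR q = 0.0269).

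The receptor of IL-33, Il1rl1, was at 0.0472 ± 0.0314 (SD) FPKM in Ctrl, 0.0234 ± 0.0199 in Case and 0.0398 ± 0.0402 in Dapa, and could be tested in Dapa against Ctrl alone (edgeR q = 0.793). Il1a, Il1rn and Il1r2 had too few counts to be tested in any comparison.

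In the inflammasome list, all 7 genes were tested. Casp4, Pycard and Gsdmd rose and Nlrc4 fell in Case against Ctrl. Pycard, the adaptor ASC, went from 1.45 ± 0.16 (SD) to 3.37 ± 0.97 FPKM (log2 fold change 1.13, SE 0.19, edgeR q = 0.00347). Gsdmd, the pore through which IL-1 beta leaves the cell, went from 1.68 ± 0.59 to 3.56 ± 1.12 (log2 fold change 1.00, SE 0.26, edgeR q = 0.0254). Casp4, the caspase that senses lipopolysaccharide in the cytosol, went from 0.20 ± 0.055 to 0.543 ± 0.293 (log2 fold change 1.34, SE 0.34, edgeR q = 0.023). Nlrc4, a sensor of bacterial proteins, fell from 0.566 ± 0.133 in Ctrl to 0.15 ± 0.07 in Case and 0.202 ± 0.080 in Dapa (edgeR q = 0.00281 and 0.00469). In Dapa against Case none of the 7 was called, and 4 had an unadjusted p under 0.05, with log2 fold changes of -1.01 for Casp4, -0.68 for Pycard, -0.72 for Gsdmd and 0.98 for Aim2, a sensor of DNA in the cytosol.

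Csf1, the main growth factor of macrophages, had FPKM values in the Ctrl mice of 0.976, 0.996, 1.04, 1.28 and 0.909. Case mice ran from 1.07 over a median of 1.46 to 3.25, and 5 of 6 lay above every Ctrl mouse. Dapa mice ran from 0.799 over a median of 1.23 to 1.59. The log2 fold change of 0.62 in Case against Ctrl (SE 0.23) did not pass (edgeR q = 0.089), nor did -0.48 in Dapa against Case (SE 0.23, edgeR q = 0.393). The highest Case value was that of Case 3. Without it the Case mean of 1.71 ± 0.78 (SD) became 1.40 ± 0.24, the fold change against Ctrl became 0.36 (q = 0.115) and that of Dapa against Case -0.22 (q = 0.553).

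Il34, the other CSF1R ligand, had FPKM values in the Ctrl mice of 1.49, 2.34, 1.82, 1.52 and 2.33. In Case the values ran from 0.828 over a median of 1.28 to 4.53, and Dapa mice from 1.05 over a median of 1.46 to 1.95. Case 3 lay above every Ctrl mouse, and 3 Case mice lay below every Ctrl mouse. The log2 fold change was -0.15 (SE 0.38, edgeR q = 0.826) in Case against Ctrl and -0.47 (SE 0.20, edgeR q = 0.101) in Dapa against Ctrl. Without Case 3 the first was -0.63 (q = 0.129), while leaving out Case 4, 5 or 6 or Ctrl 2 or 5 brought it to between -0.10 and -0.01, and in Dapa against Case the fold change turned from -0.31 to 0.16 (q = 0.80).

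The 2 ligands were weighed against each other within a mouse. The log2 ratio of Il34 to Csf1 was 0.79 ± 0.42 (SD) in Ctrl, -0.06 ± 0.53 in Case and 0.24 ± 0.36 in Dapa. The difference of -0.85 in Case against Ctrl did not pass over 9 ratio tests (exact permutation p = 0.026, q = 0.0779), nor did -0.56 in Dapa against Ctrl (exact permutation p = 0.0433, q = 0.0779). Leaving out Case 3 brought the first to -0.96 (q = 0.0476), leaving out Case 1 to -0.97 (q = 0.0476) and leaving out Ctrl 4 to -0.99 (q = 0.0322). Without Ctrl 4 the difference of Dapa from Ctrl was -0.70 (q = 0.0322).

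The shared receptor Csf1r was not called and had close means, with 4.84 ± 1.07 (SD) FPKM in Ctrl, 4.85 ± 2.66 in Case and 4.85 ± 1.62 in Dapa (edgeR q from 0.75 to 0.993). Sdc1, a syndecan that binds IL-34, rose from 1.88 ± 0.30 in Ctrl to 3.13 ± 0.27 in Dapa, with 2.64 ± 0.67 in Case (log2 fold change 0.63, SE 0.11, edgeR q = 0.00175). Ptprz1, another receptor of IL-34, had too few counts to be tested.

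Csf2rb and Csf2rb2 lie 20386 bases apart on chromosome 15 and run in opposite directions. In the deposited table (build mm10) Csf2rb spans chr15:78325990-78351000 and Csf2rb2 chr15:78282517-78305603. The paralogs are so alike that reads may be assigned to either. The longest coding sequences of the GENCODE annotation, of 2688 and 2634 bases, aligned over 2626 bases with 95.4% identical bases. Of all stretches of 50 bases in Csf2rb transcripts 12.3% also occur in Csf2rb2, and 18.4% of those of Csf2rb2 occur in Csf2rb. For stretches of 100 bases the shares were 4.63% and 6.82%. For the other 8 members the share found in transcripts of any other gene was 0%.

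The longest identical run shows where counts of the paralogs cannot be told apart. It covers 242 bases, from base 2083 to base 2324 of both coding sequences, and reads on the coding strand as follows.
Csf2rb and Csf2rb2: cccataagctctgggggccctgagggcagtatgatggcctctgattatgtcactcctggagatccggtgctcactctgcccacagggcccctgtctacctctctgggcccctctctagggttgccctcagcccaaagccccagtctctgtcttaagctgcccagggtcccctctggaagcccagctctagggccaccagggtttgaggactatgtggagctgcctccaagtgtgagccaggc

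The 90 coding bases with the fewest identical positions show where a read can be assigned. They differ at 16 positions, given in capitals, and start at base 308 of the Csf2rb and at base 311 of the Csf2rb2 coding sequence.
Csf2rb: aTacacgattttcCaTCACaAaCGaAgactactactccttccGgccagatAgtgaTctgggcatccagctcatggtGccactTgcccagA
Csf2rb2: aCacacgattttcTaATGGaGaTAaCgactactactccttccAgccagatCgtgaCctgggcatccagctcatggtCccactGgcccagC

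Csf2rb FPKM in the Ctrl mice was 0.0905, 0.473, 0.05, 0.31 and 0.493. The Case mice ranged from 0.20 over a median of 0.537 to 2.14, and Dapa mice from 0.202 over a median of 0.625 to 0.874. 4 of 6 Case mice and 5 of 6 Dapa mice lay above every Ctrl mouse, yet the lowest Case mice lay within the Ctrl range. The mean was 0.283 ± 0.208 (SD) in Ctrl, 0.853 ± 0.791 in Case and 0.595 ± 0.226 in Dapa. On the log2 scale the fold change was 1.48 (SE 0.69, edgeR q = 0.176) in Case against Ctrl, -0.51 (SE 0.53, edgeR q = 0.711) in Dapa against Case and 0.97 (SE 0.50, edgeR q = 0.166) in Dapa against Ctrl.

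Csf2rb2 had a lower mean FPKM than Csf2rb in each group, but with the annotated exon lengths it had the higher mean in Case (0.652 against 0.558) and in Dapa (0.419 against 0.39). Its counts in the Ctrl mice were 0, 11, 10, 27 and 11, and the FPKM was 0, 0.145, 0.129, 0.346 and 0.151. The count of 0 in Ctrl 1 allows an FPKM of up to 0.0401, the worth of 3 counts, for counting error alone. Among the Case mice it ran from 0.0275 over a median of 0.387 to 2.15 FPKM, and Dapa mice from 0.0417 over a median of 0.439 to 0.682. 3 Case mice and 4 Dapa mice lay above every Ctrl mouse. The log2 fold change was 2.00 (SE 0.91, edgeR q = 0.166) in Case against Ctrl, -0.63 (SE 0.75, edgeR q = 0.752) in Dapa against Case and 1.36 (SE 0.66, edgeR q = 0.137) in Dapa against Ctrl. Leaving out Dapa 9, which had 3 counts, brought the last to 1.61 with a q of 0.0483.

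Both beta receptors leaned on Case 3. Without it the fold change in Case against Ctrl was 0.99 (q = 0.353) for Csf2rb and 1.18 (q = 0.38) for Csf2rb2. In Dapa against Case it was -0.03 (q = 0.988) for Csf2rb and 0.18 (q = 0.927) for Csf2rb2, where the sign turned. Without Case 1 the latter value of Csf2rb was -0.26, and without Dapa 9 it was -0.34 for Csf2rb and -0.39 for Csf2rb2. The summed counts of both genes do not depend on which paralog a read was assigned to, if each shared read was counted once. How shared reads were counted is not given in the sources used here. The sum in the Ctrl mice was 0.431, 2.93, 0.834, 3.08 and 3.05 CPM (counts scaled to the library total). In Case it ran from 1.08 over a median of 4.2 to 20.1, and in Dapa from 1.16 over a median of 5.0 to 7.21. The Case mean of 7.15 ± 7.38 (SD) was 4.56 ± 4.22 without Case 3, next to 4.82 ± 2.11 in Dapa and 2.06 ± 1.32 in Ctrl. Beside the Dapa mean, the Case mean was thus higher with Case 3 and lower without it.

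No difference in the ratio between the paralogs was detected. The log2 ratio of Csf2rb2 to Csf2rb was -0.53 ± 0.85 (SD) in Ctrl, -0.55 ± 0.65 in Case and -0.49 ± 0.40 in Dapa. The differences between groups were -0.02, 0.06 and 0.04 for Case from Ctrl, Dapa from Case and Dapa from Ctrl (exact permutation p from 0.851 to 0.955, q = 0.955). Leaving out a mouse moved the difference of Dapa from Ctrl between -0.14 and 0.32, so that a moderate difference could have been missed. After subtraction of the group means the log levels of both genes had a Pearson r of 0.844 and a Spearman rho of 0.801 over the 17 mice. That r is a description, since the points share libraries and the genes share sequence.

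**Figure D3:**
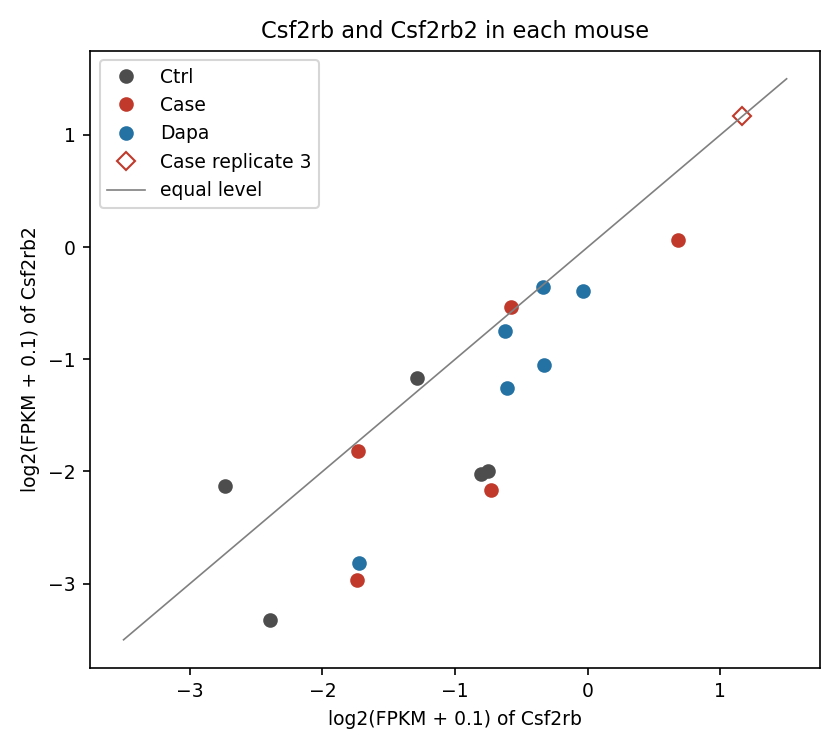
The log2 of FPKM + 0.1 of Csf2rb2 is plotted against that of Csf2rb for each mouse, with colours for the groups, a diamond for Case replicate 3 and a line for equal levels. Ctrl replicates 3 and 4 lie above the line, Case replicates 2 and 3 and Dapa replicate 12 on it within 0.04, and the other mice below it, and Case replicate 3 is the highest mouse for both genes.

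Of the 8 ligands, alpha chains and signalling genes around the beta receptors, 7 had a row in the table and 5 were tested. Csf2 and Il5, which encode GM-CSF and IL-5, had too few counts to be tested. Il5ra, the alpha chain of the IL-5 receptor, fell from 1.07 ± 0.33 (SD) FPKM in Ctrl to 0.537 ± 0.154 in Case (log2 fold change -1.06, SE 0.26, edgeR q = 0.0199) and to 0.679 ± 0.232 in Dapa (log2 fold change -0.76, SE 0.27, edgeR q = 0.0497). Csf2ra, the alpha chain of the GM-CSF receptor, was at 2.50 ± 0.72 in Ctrl, 3.56 ± 1.48 in Case and 3.65 ± 0.87 in Dapa and did not pass (edgeR q = 0.291 and 0.128 against Ctrl). Il3ra, Jak2 and Cish did not pass in any comparison.

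Case 3 stood apart in more than the members. Its summed FPKM over 11 macrophage markers was 205, where the other Case mice ran from 28.9 to 58.2, the Ctrl mice from 27.4 to 47.4 and the Dapa mice from 25.6 to 62.0. Its sum over 7 neutrophil markers was 19.9, followed by 13.5 in Case 1, with medians of 0.713 in Ctrl, 2.5 in Case and 1.81 in Dapa. Its sum over 20 interferon gamma response genes was 1390, and Case 1 and Case 5 had 594 and 633, while the other Case mice had 26.2 to 89.7, the Ctrl mice 31.2 to 40.5 and the Dapa mice 28.6 to 51.6. Case 1 was the second highest Case mouse for Csf2rb, at 1.5 FPKM, and for Csf2rb2, at 0.945. Case 5 had the lowest Case level of both. Highly expressed genes weigh most in the marker sums, as Lyz2 does among the macrophage markers (27.6 ± 35.95 FPKM, SD, in Case).

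The marker lists were tested gene by gene. Of all genes 13.0% were called in Case against Ctrl, 0% in Dapa against Case and 29.1% in Dapa against Ctrl. At an unadjusted p under 0.05 stood 28.7%, 12.9% and 41.1% of all genes, in the same order. Of the macrophage markers 10 were tested in Case against Ctrl and 1, Cd14, rose (1.48 ± 0.32 to 4.23 ± 2.77 FPKM, SD, edgeR q = 0.0284), and of 9 in Dapa against Ctrl it was again Cd14. The neutrophil marker S100a9 was the 1 of its list with enough counts and was not called. Ly6g and Mpo were at 0 in every Ctrl mouse, Mpo in every Case mouse and Ly6g in every Dapa mouse. Of 20 interferon gamma response genes 16 rose in Case against Ctrl, 1 rose and 2 fell in Dapa against Ctrl, and 0 were called in Dapa against Case, where 18 of 19 tested had an unadjusted p under 0.05. Of 6 endothelial markers 0 were called by edgeR, with 1 at an unadjusted p under 0.05 in each comparison with Case and 3 between Dapa and Ctrl. Of 11 T and NK cell markers 1 was tested in Case against Ctrl and 2 in the other comparisons, without a call, and the rest had too few counts. B cell, mast cell and basophil markers had too few counts to be tested, and those of mast cells and basophils were at 0 in every Case mouse. Of 7 fibroblast and mesangial markers 3 rose in Dapa against Ctrl. The part of these cells in the levels of Csf2rb, Csf2rb2, Il1b, Csf1 and Il34 was not tested.

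**Figure D4:**
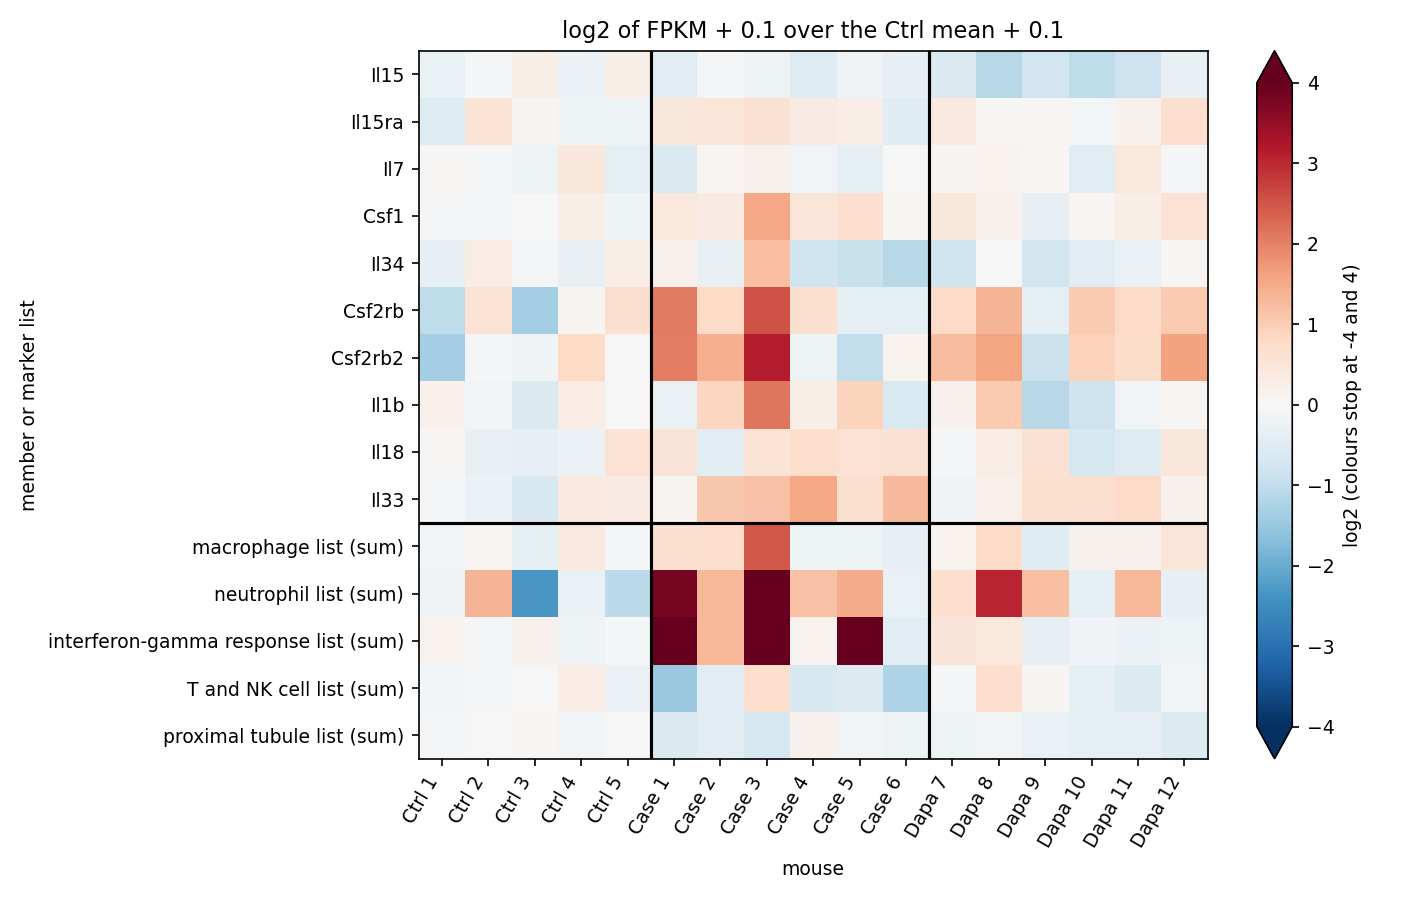
Each cell gives the log2 of a mouse's level over the mean of the Ctrl mice, with 0.1 FPKM added to both, for the 10 members (upper rows) and the summed FPKM of 5 marker lists (lower rows). Columns are mice by group, and colours stop at -4 and 4. The column of Case replicate 3 is red for Csf1, Il34, Csf2rb, Csf2rb2, Il1b and the macrophage, neutrophil and interferon gamma lists, while the row of Il15 is blue across the 6 Dapa mice.

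Within groups the members did not move as 1 block. After subtraction of group means Il34 followed Csf2rb (r 0.834, rho 0.797) and Csf2rb2 (r 0.805, rho 0.686) over the 17 mice. Csf1 followed Il1b (r 0.75, rho 0.62). Il33 had an r below 0 with Il15 (-0.263), Il15ra (-0.48) and Csf1 (-0.223), but above 0 with Il7 (r 0.398, rho 0.407). Il15 had an r of 0.382 with Il15ra. These coefficients describe mice that share a library for both genes, and Case 3 takes part in those of Il34, Csf1, Il1b and the beta receptors. The genes whose levels were most like those of Il15 among 13514 were Fam161b (r 0.871, rho 0.85), Srm (r 0.85, rho 0.86) and Stk38 (r 0.844, rho 0.789). For Il33 they were Tmem110 (r 0.887, rho 0.838), Tnfrsf22 (r 0.869, rho 0.811) and Prdm4 (r 0.863, rho 0.89). These were picked as the highest of 13514 coefficients over 17 mice, so that high values were selected, and chance was not tested. Without the 2 mice farthest from the member's median, r was 0.809, 0.808 and 0.732 for Il15, and 0.801, 0.82 and 0.921 for Il33.

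**Figure D5:**
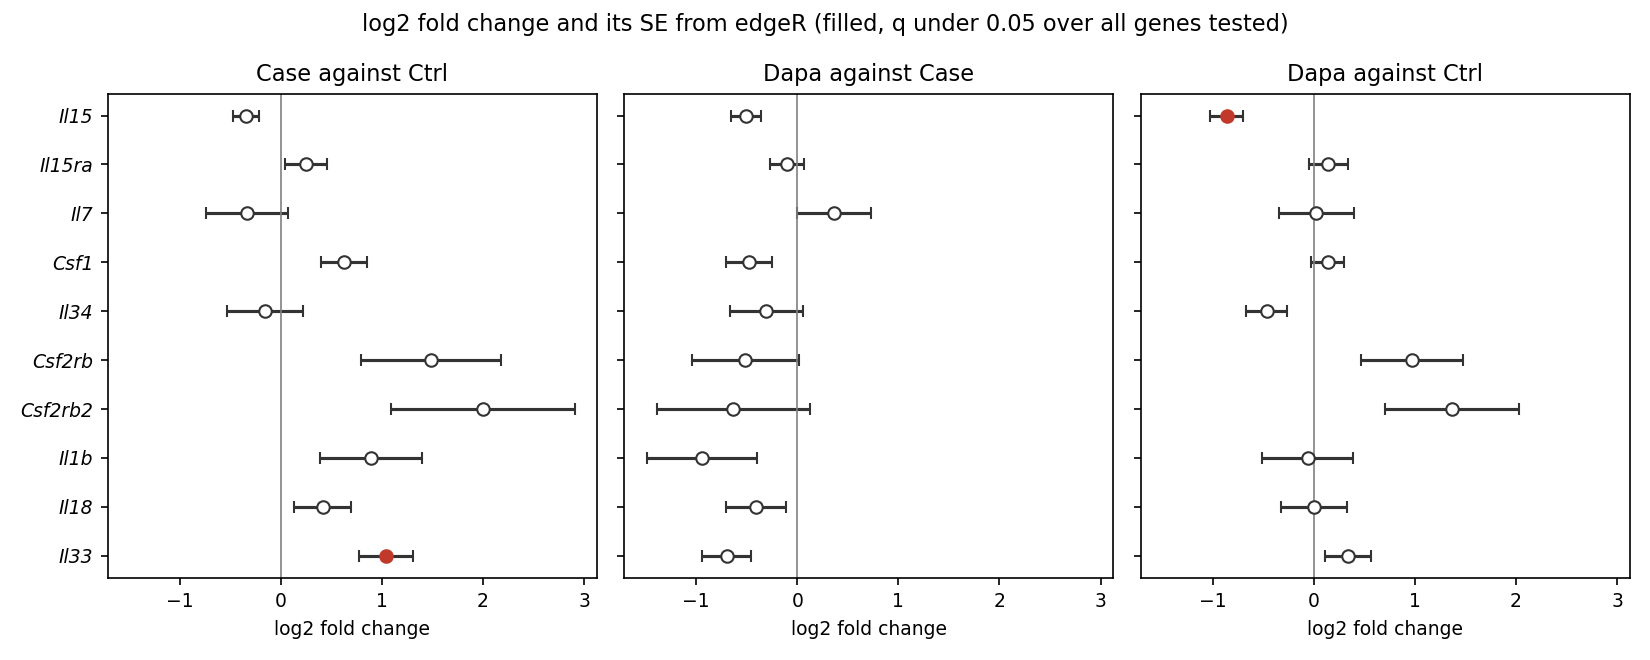
The log2 fold change of each member from edgeR and its SE, taken from the test's F, are plotted for the 3 comparisons. Filled points have a q under 0.05. Il33 in Case against Ctrl (1.04) and Il15 in Dapa against Ctrl (-0.86) are filled, and Csf2rb2 has the longest error bar in each comparison.

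Most other cytokines were near the limit of detection. Of 23 listed 20 had a row, and 3 were tested in each comparison with Case and 2 between Dapa and Ctrl. Il4, Il6, Il10, Tnf and Ifng were among those with too few counts. Tnfsf10, the death ligand TRAIL, fell in Dapa against Ctrl from 14.8 ± 2.7 (SD) to 9.71 ± 2.23 FPKM (log2 fold change -0.72, SE 0.17, edgeR q = 0.00884), and was at 23.0 ± 14.9 in Case. Over all 67 partners listed 35 were tested, of which 5 rose and 2 fell in Case against Ctrl, 0 were called in Dapa against Case, and 4 rose and 4 fell in Dapa against Ctrl. Of the partners tested, 20% were thus called in Case against Ctrl beside 13.0% of all genes, and 22.9% in Dapa against Ctrl beside 29.1% of all genes.

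Promoters from RefSeq (build GRCm38.p6, 250 bases before to 50 after a gene's start) were at hand for 6 members in 8 entries, and Il15, Il34, Il7 and Csf2rb had no entry. They were searched on both strands for the interferon gamma activated site TTCNNNGAA, found in 8.3% of 32851 promoters, the interferon-stimulated response element GAAANNGAAA, found in 3.44%, and GAGGAA, the ETS core that the myeloid factor PU.1 reads, found in 28.3%. The first is read by STAT proteins. 5 of the 8 entries held no match. The promoter of Csf2rb2 is shown since it held matches of 2 motifs, namely 1 match of the first motif at -15 and 2 of the third, at -167 and 29 from the start. It lies at chr15:78305672-78305971 on the minus strand, and the matches are in capitals.
Csf2rb2: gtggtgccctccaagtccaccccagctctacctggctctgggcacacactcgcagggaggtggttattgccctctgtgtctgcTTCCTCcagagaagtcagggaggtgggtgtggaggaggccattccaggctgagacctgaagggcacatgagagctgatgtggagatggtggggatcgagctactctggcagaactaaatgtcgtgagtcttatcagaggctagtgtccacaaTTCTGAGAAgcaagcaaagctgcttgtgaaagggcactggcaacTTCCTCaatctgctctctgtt

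The first of 2 promoter entries of Il33 is shown since Il33 was called. It held GAGGAA at -4 and at 2, in capitals, and lies at chr19:29924863-29925162 on the plus strand. The first Il15ra entry also held GAGGAA, at -212 and -196. A match of letters does not show that a factor binds.
Il33: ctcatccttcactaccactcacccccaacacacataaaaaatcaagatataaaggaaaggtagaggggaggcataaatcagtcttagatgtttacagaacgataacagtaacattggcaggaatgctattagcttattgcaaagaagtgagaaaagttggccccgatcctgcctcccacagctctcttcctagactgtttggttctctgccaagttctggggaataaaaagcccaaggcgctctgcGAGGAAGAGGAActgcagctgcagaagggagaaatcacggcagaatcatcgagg

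Neighbouring and overlapping genes limit some counts. The deposited locus of Il18 (chr9:50575273-50581837) starts 20446 bases inside the annotated gene, and Il18 overlaps Bco2 and Tex12 on the other strand. Antisense genes overlap Il34 (Gm15894 and Gm15895), Il1b (Il1bos) and Il7 (Gm16685), and a microRNA gene lies within each of Csf2rb and Csf2rb2. The libraries were strand-specific, but whether strand was used in counting is not given in the sources used here. Il15 (chr8:82331637-82403222), Il15ra, Csf1 and Il33 (chr19:29925114-29960718) overlap no other annotated gene.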

How the data were processed

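Kidney RNA of 17 mice was sequenced from poly(A)-enriched, strand-specific libraries. Per the labels and the paper, HISAT2 (mm10) was the authors' aligner, and Stringtie gave the read counts per gene that were deposited. FPKM as deposited could be rebuilt from the count, the gene length and the library total with deviations up to 0.00241% (counts of 100 or more), so no TMM factor is in them although the authors name TMM. Broken entries of 3 genes (Sirt1, Tgfb1 and Bmp4), whose FPKM did not match their counts in 7 libraries (Ctrl 1, 3 and 4, Case 1, Dapa 10, 11 and 12), were left out, which left 22558 genes. For Ctrl 2 the FPKM of these entries was 0.9988 of the value that the count gives, which was taken as a match. 0 columns were unmapped.

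Counts were compared per pair of groups by the quasi-likelihood test of edgeR 4.0.16 (R 4.3.3), after filterByExpr and TMM scaling and with Benjamini-Hochberg q values. The script was tested on simulated data. A DEG also had a fold above 2 between mean FPKM. Ratios (pseudocount 0.1 FPKM) were compared by exact permutation tests in Python 3.11.15 with scipy 1.17.1. DESeq2 1.42.0 and limma 3.58.1 were alternatives. GENCODE (GRCm38) gave exons and shared sequence, counted over transcripts of all genes. No libraries of a group were duplicates (lowest chi-square per gene 15.1).

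All 10 members were named, and of each partner list every called gene up to 5, and for a called member the 3 genes of highest r. Partners that did not pass (such as Il2rg, Csf1r and Il1rl1) and marker genes were named after their values were seen. Likeness used log2 CPM (mean count of at least 20, group means subtracted). Members and lists were chosen with earlier results of these data known. Itgam and Gbp6, each with several entries, were left out of the marker lists. Marker lists covered macrophage, dendritic cell, neutrophil, T and NK cell, B cell, mast cell and basophil, interferon gamma response, proximal tubule, collecting duct and distal nephron, endothelium, and fibroblast and mesangial cell.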

Additional observations from a re-analysis of the deposited data

Results flagged for a closer look

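Of 30 groups of member values, 4 held a mouse whose gap to its nearest neighbour exceeded Dixon's 95% critical value, where chance flags about 1 in 20. Case 3 was far above the other Case mice for Il34 (4.53 FPKM, next 2.13), Csf1 (3.25 FPKM, next 1.72) and Il1b (1.85 FPKM, next 0.728). Case 2 was far below the others for Il18 (1.21 FPKM, next 2.46), at 13 counts.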

How the results depend on the processing

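Single members were refitted under 639 alternatives, of which 610 kept direction and side of the threshold, 5 lost the call of Il33 given above, 1 gained one (Csf2rb2 in Dapa against Ctrl without Dapa 9, 1.61) and 23 reversed sign. The call of Il15 in Dapa against Ctrl was kept under the 21 refits (log2 fold change -0.95 to -0.65, q 1.78e-05 to 0.00926).

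The number of members called in Case against Ctrl was 0 with the term for the 7 libraries and 0 with the replicate block, and ran from 0 to 1 when a mouse was left out. In Dapa against Ctrl it was 0 with the fold above 2, which Il15 did not reach, and ran from 1 to 2 when a mouse was left out. Ctrl and Case share replicate numbers 1 to 5, but same-numbered mice did not deviate together (r -0.083 to -0.034), so the replicate block pairs by number alone. It brought the calls over all genes from 1895 to 707, the term for the 7 libraries to 1219, the fold above 2 to 553, and leaving out Ctrl 3, 5, 2 or 1 to 1002, 1125, 1150 and 1160. In Dapa against Ctrl the fold above 2 brought 4260 calls to 1051. In Dapa against Case 5 genes were called with all 3 groups in one fit and 7 without Dapa 7, and no member was among them.

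Reversed values were small and far from the threshold (q 0.605 or above). Leaving out a mouse gave ranges of -0.44 to 0.16 for Il34 and -0.88 to 0.18 for Csf2rb2 in Dapa against Case, where the sign turned without Case 3, and of -0.14 to 0.19 for Il18, -0.49 to 0.14 for Il1b and -0.15 to 0.30 for Il7 in Dapa against Ctrl. Il18 in Dapa against Ctrl was also 0.00 with median ratio scaling, the exact test and no filter, 0.01 with DESeq2, 0.02 with at least 10 counts, 0.04 with upper quartile scaling and limma at pseudocount 1, and 0.05 with limma at 0.1.

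For the ratio of Csf2rb2 to Csf2rb, leaving out a mouse gave -0.20 to 0.26 in Case against Ctrl, -0.12 to 0.18 in Dapa against Case and -0.14 to 0.32 in Dapa against Ctrl. It was -0.02 in Dapa against Ctrl at a pseudocount of 1 and 0.06 in Case against Ctrl with CPM. For Il34 to Csf1, leaving out a mouse gave -0.99 to -0.71 in Case against Ctrl and -0.70 to -0.42 in Dapa against Ctrl. For Il15 to Il15ra it gave -0.49 to -0.29 in Dapa against Case and -1.17 to -0.90 in Dapa against Ctrl. With 5 mice against 5 the exact permutation p cannot go below 0.00794. The cause of the other changes was not tested. Counts under 10 in some mice limit Csf2rb2, Csf2rb, Il1b and Il7.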
